A study of Mus musculus with 81 samples.

Results

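Heart RNA pools with a high level of Hspa1a, the stress-inducible Hsp70 gene, were compared with pools in which it was low. The 81 pools, 1 array each, were ranked by the Hspa1a probe set within their diet, and the 8 highest and the 8 lowest of each diet were taken. This gave 16 high and 16 low pools of 81, and 49 pools in neither group. Every pool combined RNA from the hearts of about 5 males of 1 strain, aged 29 weeks, fasted overnight and perfused under isoflurane. The strains belong to the BXD family, inbred lines bred from C57BL/6J and DBA/2J, and include both parents. The high pools on the high fat diet came from BXD43, DBA/2J, BXD90, BXD63, BXD95, BXD65, BXD75 and BXD56. Those on chow came from DBA/2J, BXD49, BXD84, BXD63, BXD64, BXD51, BXD43 and BXD80. The low pools on the high fat diet were BXD103, BXD68, BXD71, BXD89, BXD96, BXD61, BXD87 and BXD73. On chow they were BXD79, BXD73, BXD87, BXD60, BXD61, BXD81, BXD50 and BXD101. Neither group holds a treatment given to induce heat shock, and the grouping comes from the measured transcript alone. The diet was read from the treatment label, since a protocol text common to all pools speaks of chow alone.

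Heat shock proteins are chaperones that bind unfolded proteins and help them fold, and a cell makes more of them when proteins are damaged by heat, lack of oxygen or other stress. The transcription factor Hsf1 drives this response by binding inverted repeats of the bases GAA in the promoters of its targets. Hsp70 proteins work in cycles of ATP use, in which Hsp40 partners load the substrate and trigger ATP hydrolysis and Hsp110 proteins release the nucleotide, and Hsp90 with its co-chaperones takes up part of the substrates. Heart muscle holds large amounts of some chaperones, such as alpha B-crystallin, without any stress, while Hspa1a and Hspa1b are low at rest and strongly inducible.

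Values are in rescaled units: the probe sets of each array average 8, with an SD of 2. The scale behaves like a logarithm of unknown base, so a difference in units cannot be turned into a fold. The median gene stood at 8.18 and the medians of the arrays lay between 7.62 and 7.75. Markers of the labelled tissue were high in all 32 pools. Myh6, the main heavy chain of the mouse heart, read 15.34 to 15.60 in the high pools and 15.36 to 15.74 in the low pools, and cardiac troponin T (Tnnt2) 15.47 to 16.11 in the high pools and 15.66 to 16.15 in the low pools. The animals behind a pool are not seen separately, so p-values measure the spread between pools, most of them of different strains, and precision is limited by how many arrays there are. In whole hearts, a change in the share of a cell type and a change of RNA per cell cannot be told apart.

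Hspa1a chose the groups, so its values are a description. On the high fat diet the high pools read 12.571 in BXD43, 12.459 in DBA/2J, 11.449 in BXD90, 11.072 in BXD63, 11.053 in BXD95, 10.691 in BXD65, 10.214 in BXD75 and 10.116 in BXD56. The low pools of that diet were close together, from 8.246 in BXD73 to 8.886 in BXD103. On chow the high pools read 12.261 in DBA/2J, 12.049 in BXD49, 11.445 in BXD84, 10.969 in BXD63, 10.724 in BXD64, 10.636 in BXD51, 10.613 in BXD43 and 10.38 in BXD80. The low chow pools lay between 8.644 in BXD101 and 8.932 in BXD79. The upper end was thus spread over more than 2 units in the high fat diet, and the low pools over less than 1 unit. High minus low was 2.41 ± 0.193 units (SE, 16 pools per group, diet in the model).

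Just outside the groups stood BXD64 on the high fat diet at 9.925 and BXD99 on chow at 10.38, the same value as BXD80, which was kept because it comes first in the deposited table. At the lower end the next pools were BXD98 on the high fat diet at 8.924 and BXD65 on chow at 8.947. The low group therefore borders on a dense part of the ranking, while the high group is its thin upper tail. C57BL/6J was in neither group, with 9.303 on the high fat diet and 9.763 on chow.

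Hspa1b, the neighbouring and near-identical copy of Hspa1a, is described only, since probes for the one may bind transcripts of the other. In the high pools it had a lowest value of 8.90, a median of 10.79 and a highest value of 12.61 on the high fat diet, against 7.94, 8.28 and 8.93 in the low pools. On chow these values were 9.51, 10.28 and 11.82 in the high pools, against 7.12, 8.13 and 8.35 in the low pools. Hspa1b overlapped in 1 high pool alone, BXD56 on the high fat diet, whose value of 8.90 lay below the 8.93 of a low pool. The difference was 2.53 ± 0.262 units (SE). A further probe set that the platform's gene table assigns to both copies read 6.86 to 8.0 in the high pools and 6.34 to 7.34 in the low pools, below the median gene in all 32.

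**Figure D1:**
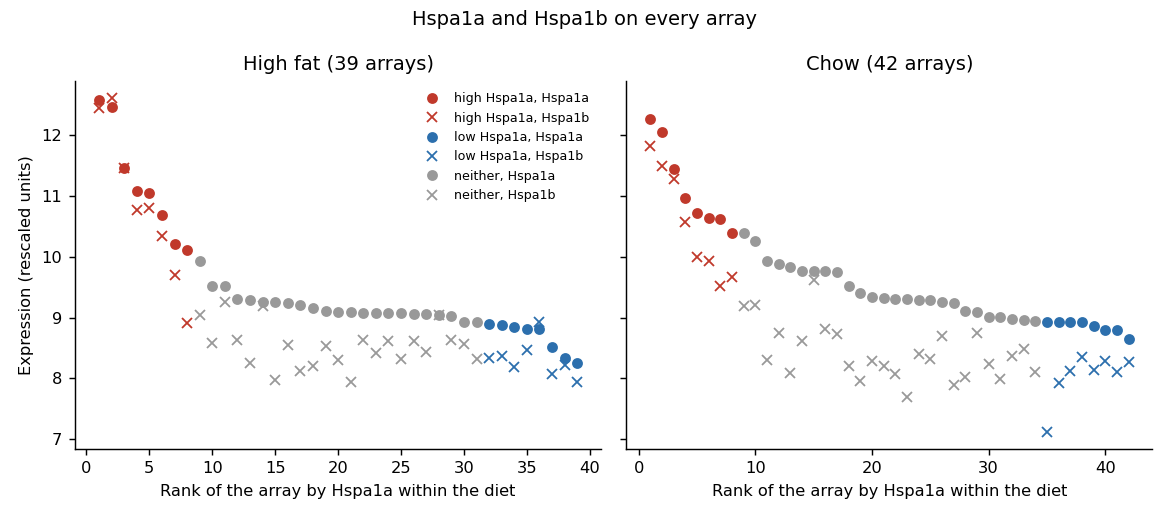
Level of Hspa1a (filled circles) and Hspa1b (crosses) in rescaled units on each array, in order of Hspa1a within the high fat diet (left, 39 arrays) and chow (right, 42 arrays). The high pools (red) form a steep upper tail from 12.571 to 10.116 on the high fat diet and from 12.261 to 10.38 on chow, while the low pools (blue) end a long flat stretch.

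The promoters below are shown because the genes that moved with Hspa1a include targets of Hsf1. Each line gives 60 bases of the coding strand, 5′ to 3′, from RefSeq on GRCm38.p6. Capitals mark pairs of facing GAA units, written GAANNTTC or TTCNNGAA, and in Chordc1 a run of overlapping pairs. The stretch of Hspa1a lies at chr17:34972227-34972286 (minus strand), that of Hspa1b at chr17:34959309-34959368 (minus strand), Hsph1 at chr5:149636337-149636396 (minus strand), Chordc1 at chr9:18292227-18292286 (plus strand) and Cirbp at chr10:80167779-80167838 (plus strand). Those of Hsph1 and Cirbp end at an annotated start, that of Chordc1 runs from 40 bases before its start to 20 bases after it, and those of Hspa1a and Hspa1b begin 130 bases before their starts.
Hspa1a: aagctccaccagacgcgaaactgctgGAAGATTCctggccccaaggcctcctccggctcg
Hspa1b: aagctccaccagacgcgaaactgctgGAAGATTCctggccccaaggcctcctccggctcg
Hsph1: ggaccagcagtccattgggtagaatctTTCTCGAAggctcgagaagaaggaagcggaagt
Chordc1: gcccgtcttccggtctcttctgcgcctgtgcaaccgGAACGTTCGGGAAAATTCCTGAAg
Cirbp: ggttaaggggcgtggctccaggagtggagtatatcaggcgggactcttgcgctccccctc

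The stretches of Hspa1a and Hspa1b were identical, and their whole windows of 300 bases (250 before the start and the rest after it) differed at 4 positions. Each of these windows held 1 pair, GAAGATTC, at position -104 from the start, and no run of 3 alternating units. A pair of either kind was present in 15.1% of all 32851 promoter windows in the table, and a run of 3 units (GAA, TTC and GAA, or TTC, GAA and TTC, each separated by any 2 bases) in 0.603%. Counted by gene over 27025 genes, the shares were 17% and 0.662%. Both strands are covered by these letters, and the runs contain the pairs. Of the 8 genes called between the groups, 7 had a window, and 2 of the 7, Hsph1 and Chordc1, held both a pair and a run of 3. The run of Hsph1 lay after its annotated start, outside the stretch shown, which holds a single pair. The windows of Dnajb1, Hspa4l, P4ha1 and Ahsa2, all higher in the high pools, held neither. Those of Cirbp, the only gene that was lower, held neither as well. With 1 lower gene, the windows cannot show whether the letters divide higher from lower genes. A match is a string of letters and not a site, and the windows are short.

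Few genes separated the groups. With diet in the model, 8 of 22178 genes tested (0.0361%) were called at an adjusted p under 0.05 (limma with Benjamini-Hochberg adjustment, used for every adjusted p below unless stated). The high pools were higher in 7 (0.0316%), Hsph1, Dnajb1, Hsp90aa1, P4ha1, Chordc1, Hspa4l and Ahsa2, and lower in 1 (0.00451%), Cirbp. Of the 7, 5 stand on the lists of Hsp70 and Hsp110, Hsp40, and Hsp90 with its co-chaperones, which held 10, 8 and 11 tested genes. P4ha1 stands on 2 other lists and Ahsa2 on none. All lists were written with earlier results of these data known. At an unadjusted p under 0.05 the count was 1392 genes (6.28%). The median difference over all genes was -0.0053 units, and the central 95% of genes lay between -0.17 and 0.16 units.

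Hsph1, an Hsp110 protein that recharges Hsp70, had the largest difference of the 8. On the high fat diet its lowest, median and highest values were 9.58, 9.92 and 10.95 in the high pools, against 9.01, 9.34 and 9.73 in the low pools. On chow they were 9.33, 10 and 10.32 in the high pools, against 8.68, 9.08 and 9.59 in the low pools. The groups overlapped, with 5 of 8 high pools above every low pool on each diet, and BXD43 and DBA/2J led on both diets. High minus low was 0.753 ± 0.127 units (SE; adjusted p = 0.010). Hspa4l, another Hsp110 protein, read 10.36, 10.45 and 10.95 in the high pools on the high fat diet, against 9.98, 10.20 and 10.52 in the low pools. On chow it read 10.23, 10.52 and 10.90 in the high pools, against 10.06, 10.26 and 10.36 in the low pools. On chow 7 of 8 high pools exceeded all low pools, and on the high fat diet 3 of 8, because BXD87 was high among the low pools there. The difference was 0.324 ± 0.0615 units (adjusted p = 0.0211).

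Dnajb1, the stress-inducible Hsp40 that delivers substrates to Hsp70, read 8.96, 9.38 and 10.15 (lowest, median, highest) in the high pools on the high fat diet, against 8.66, 8.84 and 9.09 in the low pools. On chow its values were 8.85, 9.10 and 9.72 in the high pools, against 8.56, 8.81 and 8.91 in the low pools. It separated the groups in 7 of 8 high pools on the high fat diet and 6 of 8 on chow. The difference was 0.506 ± 0.0871 units (adjusted p = 0.010).

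Hsp90aa1, the inducible Hsp90 of the cytosol, had the smallest adjusted p of all genes. Its lowest, median and highest values were 10.09, 10.45 and 10.78 in the high pools on the high fat diet, against 9.82, 10.02 and 10.07 in the low pools. The 2 groups did not overlap there. On chow they were 9.86, 10.08 and 10.32 in the high pools, against 9.28, 9.65 and 9.89 in the low pools, and 6 of 8 high pools exceeded all low pools. High minus low was 0.459 ± 0.0628 units (adjusted p = 0.000371). The low pools on the high fat diet, at up to 10.07, overlapped the high pools on chow, which began at 9.86.

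Among the helpers of Hsp90, Chordc1, a zinc-binding co-chaperone, and Ahsa2, a relative of the activator of the Hsp90 ATPase, were higher. Chordc1 read 11, 11.39 and 11.61 in the high pools on the high fat diet, against 10.41, 11.01 and 11.22 in the low pools, and 11.05, 11.13 and 11.49 in the high pools on chow, against 10.59, 10.89 and 11.09 in the low pools. Its difference was 0.375 ± 0.0712 units (adjusted p = 0.0211), with 6 of 8 high pools above all low pools on the high fat diet and 4 of 8 on chow. Ahsa2 read 10.11, 10.41 and 10.71 in the high pools on the high fat diet, against 9.88, 10.06 and 10.22 in the low pools, and 10.05, 10.22 and 10.52 in the high pools on chow, against 9.85, 9.92 and 10.16 in the low pools. Its difference was 0.321 ± 0.0559 units (adjusted p = 0.010), with 6 of 8 high pools above all low pools on each diet.

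P4ha1, the catalytic subunit of a prolyl hydroxylase that modifies collagen in the endoplasmic reticulum, is no chaperone. It stands on the list of other Hsf1 targets and also on the hypoxia list. On the high fat diet it read 11.03, 11.49 and 11.99 in the high pools, against 10.79, 10.98 and 11.11 in the low pools, and 7 of 8 high pools exceeded all low pools. On chow it read 10.85, 11.27 and 11.63 in the high pools, against 10.46, 10.94 and 11.21 in the low pools, and 4 of 8 did. High minus low was 0.449 ± 0.0848 units (adjusted p = 0.0211).

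Cirbp, the cold-inducible RNA-binding protein that is known to rise at lowered body temperature, went the other way. Its lowest, median and highest values were 8.74, 8.99 and 9.21 in the high pools on the high fat diet, against 9.11, 9.31 and 9.52 in the low pools. On chow they were 8.94, 9.15 and 9.39 in the high pools, against 9.20, 9.48 and 9.67 in the low pools. Of the high pools 6 of 8 on the high fat diet and 4 of 8 on chow lay below every low pool. The difference was -0.309 ± 0.0567 units (adjusted p = 0.0189).

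**Figure D2:**
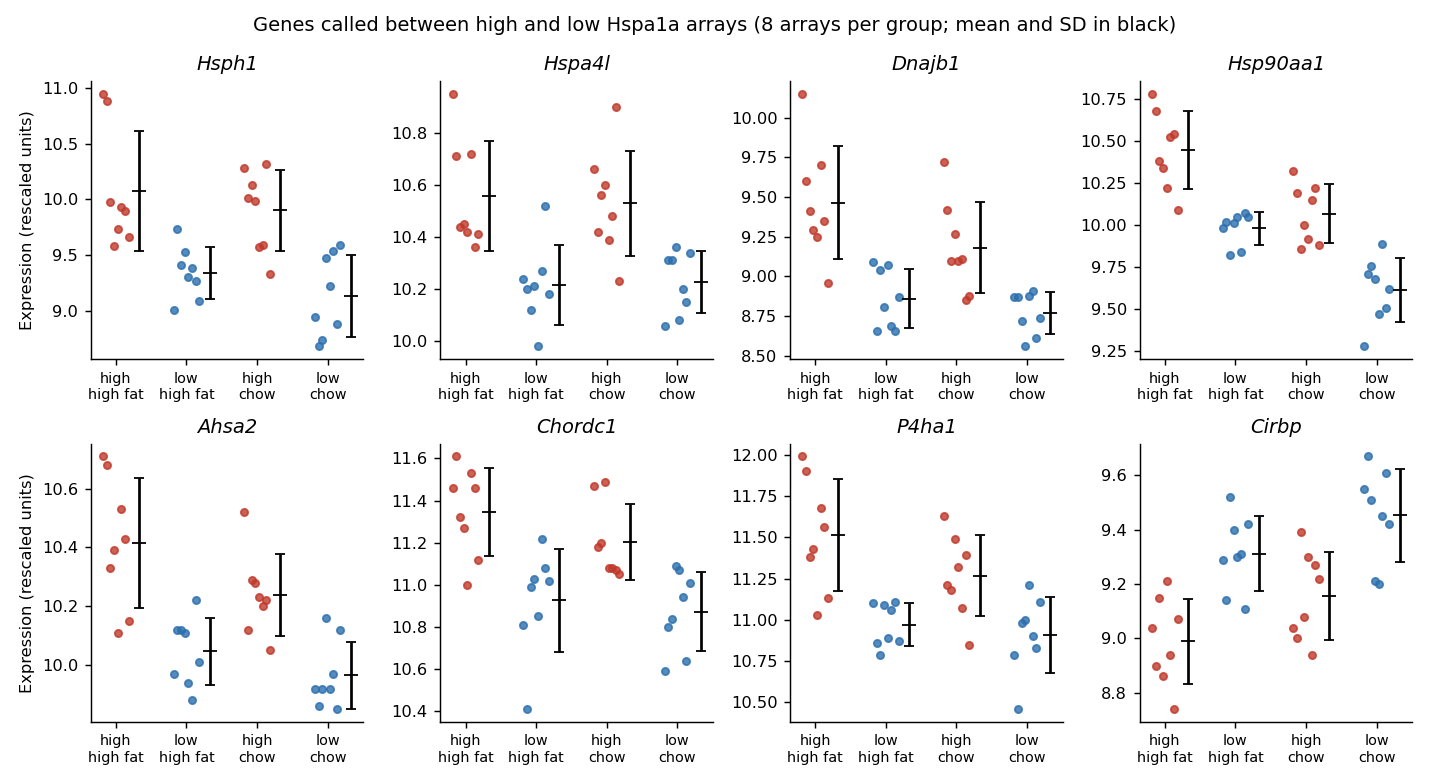
Levels of the 8 genes called between high (red) and low (blue) Hspa1a pools, in rescaled units, 1 point per array and 8 arrays per group and diet. Black bars give the mean and SD. In 7 panels the high pools have the higher mean on both diets, with differences of 0.321 to 0.753 units, and Cirbp has them below, with a difference of -0.309 units.

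The calls rest on both diets together. In either diet alone no gene was called by limma, with 1361 genes at an unadjusted p under 0.05 in the high fat pools and 954 in the chow pools. The signs in the diets were the same for all 8. Hsph1 differed by 0.736 units on the high fat diet and 0.769 on chow, Hsp90aa1 by 0.463 and 0.456, Hspa4l by 0.344 and 0.303, and Cirbp by -0.322 and -0.297. P4ha1 differed by 0.542 units on the high fat diet and 0.356 on chow, Dnajb1 by 0.601 and 0.410, Chordc1 by 0.418 and 0.332, and Ahsa2 by 0.370 and 0.272. A model with the interaction of group and diet called 0 of 22178 genes (0%; limma, 881 at an unadjusted p under 0.05, 3.97%), and for the 8 genes the interaction lay between -0.0332 and 0.191 units, with SEs of 0.112 to 0.258 and a smallest unadjusted p of 0.279. Differences between the diets of that size could not be resolved with 8 pools in each group.

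The number of calls changed with the pools that were left out. Without the DBA/2J pools 4 genes were called, Hsp90aa1, Hsph1, Dnajb1 and Ahsa2, and Cirbp, P4ha1, Chordc1 and Hspa4l had adjusted p-values of 0.0995, 0.104, 0.104 and 0.104. Without the 3 highest pools of each diet 1 was called, Hsp90aa1, and the difference of Hsph1 was 0.524 units (adjusted p = 0.266). With 6 pools per group and diet, which kept the highest pools, 2 were called. Leaving out 1 pool at a time, 5 to 10 genes were called. Without BXD43 on the high fat diet or DBA/2J on chow, the highest pools of their diets, the count stayed at 8. The count was 5 without BXD65 or DBA/2J on the high fat diet or BXD79 on chow, when P4ha1, Chordc1 and Hspa4l had adjusted p-values of 0.0505 to 0.051. Without BXD50 on chow Chordc1 and Hspa4l had 0.0504. The other 5 genes were called in all 32 such fits, and each of the 8 kept its sign in all of them.

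High pools were not alike in the 7 genes. All 7 stood above every low pool of the same diet in BXD43, DBA/2J and BXD65 on the high fat diet and in DBA/2J and BXD63 on chow. At the other end BXD80 on chow, at the border of the group, had 0 of 7, and BXD95 and BXD56 on the high fat diet had 2 of 7. BXD95, with an Hspa1a of 11.053, was not at the border of its group. C57BL/6J on chow, in neither group with an Hspa1a of 9.763, had all 7 above the low pools. In the pools of neither group the median was 1 of 7 on each diet. The 7 genes were called on the high and low pools counted here, so these counts are a description. No share over all genes was taken beside them, and they were not tested.

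Most genes of the heat shock system were not called. Beside Hspa1a and Hspa1b, 10 genes of the Hsp70 and Hsp110 families were tested, of which 2 were higher, 0 were lower and 8 were not called, with a median of 0.131 units. Hspa8, the constitutive Hsp70, read 14.63, 14.79 and 14.88 in the high pools on the high fat diet, against 14.51, 14.69 and 14.78 in the low pools, and 14.51, 14.66 and 14.82 in the high pools on chow, against 14.54, 14.61 and 14.68 in the low pools. Its difference of 0.0847 ± 0.0393 units did not pass the test (adjusted p = 0.782), and its groups overlapped widely. Hspa1l, another Hsp70 gene beside Hspa1a on the chromosome, differed by 0.207 ± 0.0698 units (adjusted p = 0.65). Names of genes that were not called, other than Hspa8, Hspb1, Cryab and Bag3, were chosen after their values were seen.

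Of 8 cytosolic Hsp40 genes 1 was higher, 0 were lower and 7 were not called, with a median of 0.067 units. Dnaja4 differed by 0.127 ± 0.0542 units (adjusted p = 0.732) and Dnajb4 by 0.117 ± 0.0477 units (adjusted p = 0.726). Of 11 genes for Hsp90 and its co-chaperones 2 were higher (Hsp90aa1 and Chordc1), 0 were lower and 9 were not called, with a median of 0.082 units. Ahsa2 is not on that list. Stip1, which links Hsp70 to Hsp90, stood nearest to the threshold among those not called, with 10.95, 11.14 and 11.47 in the high pools on the high fat diet, against 10.71, 10.90 and 10.99 in the low pools, and a difference over both diets of 0.234 ± 0.0512 units (adjusted p = 0.0995). Of its high pools 7 of 8 on the high fat diet and 4 of 8 on chow exceeded all low pools. Ahsa1, the main activator of the Hsp90 ATPase, differed by 0.0817 ± 0.0614 units (adjusted p = 0.88).

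The small heat shock proteins, which hold unfolded proteins without using ATP, gave 0 calls among 6 members, with a median of -0.019 units. Hspb1 had the largest difference among them, 0.321 ± 0.0800 units (adjusted p = 0.276). It read 11.48, 11.80 and 11.97 in the high pools on the high fat diet, against 11.29, 11.55 and 12.02 in the low pools, and 11.51, 11.75 and 12.22 in the high pools on chow, against 10.91, 11.48 and 11.70 in the low pools. On the high fat diet 0 of 8 high pools exceeded all low pools, and 4 of 8 on chow did. Cryab, alpha B-crystallin, read 15.05 to 15.41 in the high pools and 15.09 to 15.57 in the low pools, with a difference of -0.0236 ± 0.0481 units (adjusted p = 0.968).

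Of 6 BAG proteins, which free substrates from Hsp70, 0 were called. Bag3, the member that protects heart muscle under load, differed by 0.0915 ± 0.0749 units (adjusted p = 0.893). Of 3 genes around the heat shock factors 0 were called, and Hsf1 itself was not analysed here. Of 9 other Hsf1 targets 1 was higher, P4ha1, and 8 were not called. Serpinh1, the collagen chaperone of the endoplasmic reticulum, read 10.41, 10.90 and 11.23 in the high pools on the high fat diet, against 9.67, 10.44 and 10.81 in the low pools, and 10.16, 10.51 and 10.62 in the high pools on chow, against 9.84, 10.12 and 10.45 in the low pools. Its difference of 0.392 ± 0.0911 units had an adjusted p of 0.197, and 6 of 8 high pools on the high fat diet and 4 of 8 on chow exceeded all low pools.

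Other chaperone systems and the proteasome gave 0 calls. The TRiC chaperonin, the folding chamber of the cytosol, had 0 calls among 8 subunits and a median of 0.009 units. Mitochondrial chaperones and proteases had 0 calls among 11 and a median of -0.029 units, with Hspd1 at 0.131 ± 0.0626 units. Chaperones of the endoplasmic reticulum had 0 calls among 17 and a median of 0.062 units, with Hspa5 (BiP) at 0.062 ± 0.0542 units. The proteasome had 0 calls among 30 subunits and a median of -0.024 units.

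**Figure D3:**
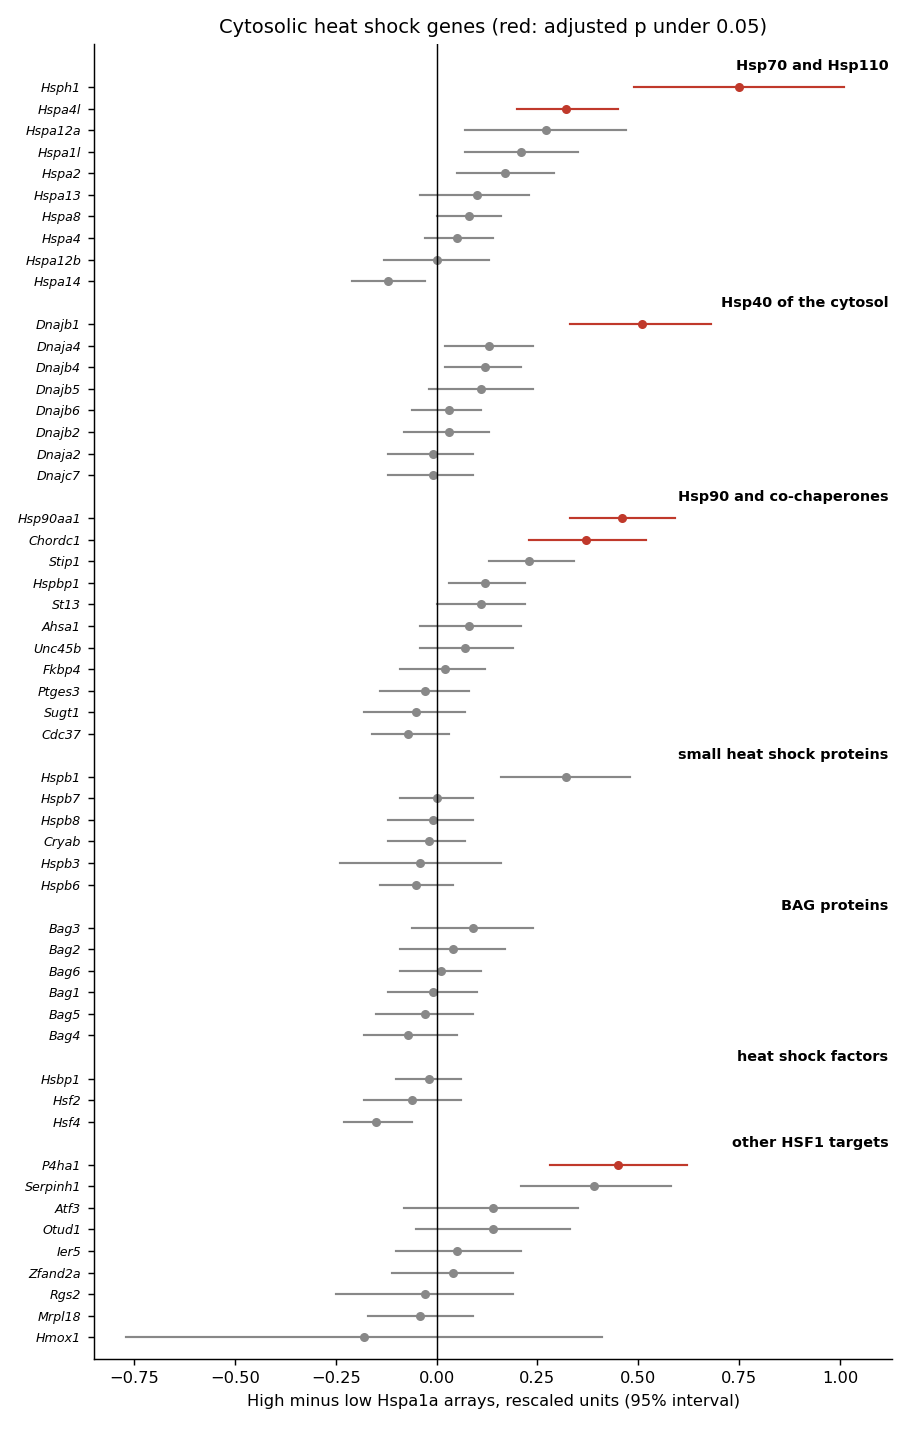
High minus low difference in rescaled units with its 95% interval for the tested members of 7 lists of cytosolic heat shock genes, sorted within each list, with called genes in red. Hsph1 (0.753 units), Dnajb1 (0.506), Hsp90aa1 (0.459), P4ha1 (0.449), Chordc1 (0.375) and Hspa4l (0.324) stand to the right of members whose intervals mostly cover 0.

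Of the other stress programs, only the hypoxia list held a call. Of 24 immediate early genes, the first genes switched on by growth signals and handling, 0 were called and 22 had a positive difference, with a median of 0.11 units. Nr4a3 was the largest, with 8.86, 9.33 and 9.75 in the high pools on the high fat diet, against 8.57, 9.00 and 9.29 in the low pools, and a difference of 0.42 ± 0.112 units (adjusted p = 0.376). The mean of the list ran from 10.06 to 10.46 in the high pools and from 9.80 to 10.60 in the low pools, so the groups overlapped. Of 19 collagen and matrix genes 0 were called and 19 had a positive difference, with a median of 0.117 units over both diets, 0.237 on the high fat diet and 0.037 on chow. Their mean was 10.63 to 10.95 in the high pools on the high fat diet, against 10.41 to 10.75 in the low pools, and 10.37 to 10.77 in the high pools on chow, against 10.20 to 10.83 in the low pools. Members of a list were read on the same pools, so counts of positive members, here and below, are not counts of separate results. The median difference over all genes was -0.0053 units. The part of these 2 lists in the other differences was not tested. Lists of the integrated stress response, NRF2 targets, inflammation, interferon response, glucocorticoid targets, clock genes, fasting targets, complex I and the sarcomere also had 0 calls, with medians between -0.086 and 0.033 units. The hypoxia list had 1 call in 13, P4ha1, and a median of -0.005 units.

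Of 10 markers of atrial muscle cells 0 were called and 8 had a positive difference, with a median of 0.369 units over both diets, 0.978 on the high fat diet and -0.096 on chow. The mean of the list was 8.79, 11.24 and 12.39 (lowest, median, highest) in the high pools on the high fat diet, against 8.70, 10.21 and 11.69 in the low pools, and 9.12, 11.06 and 11.70 in the high pools on chow, against 8.96, 11.32 and 12.28 in the low pools. With this mean as a covariate all 8 genes and Ccnb1ip1 were called. Of 12 fetal and stress genes of the heart muscle cell 0 were called and 10 had a positive difference. Their median was 0.163 units over both diets, 0.24 on the high fat diet and 0.079 on chow. Nppa, the atrial natriuretic peptide, differed by 0.51 ± 0.328 units (adjusted p = 0.859), with 1.09 on the high fat diet and -0.07 on chow. Acta1, the skeletal actin that hearts under load re-express, differed by 0.55 ± 0.227 units (adjusted p = 0.73), with 0.79 and 0.3. Myh7 and Tnni1 were negative, at -0.27 ± 0.184 (adjusted p = 0.868) and -0.08 ± 0.0924 units (adjusted p = 0.931). The mean of brown fat markers was 8.38 to 8.92 in the high pools and 8.33 to 8.85 in the low pools, and with it as a covariate the 8 genes were called again among 10. The lists of the other cell types (white fat, liver, red cells, skeletal muscle, lung, T and B cells, neutrophils, macrophages, fibroblasts, endothelium, smooth muscle, mesothelium, nerve) gave 0 calls, with medians between -0.104 and 0.106 units.

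Hspa1a lies in the major histocompatibility region, where the parents carry different haplotypes. Of the 19 measured genes among its nearest neighbours 0 were called, and their differences lay between -0.12 and 0.21 units. H2-Ea, a class II gene that is silent on the C57BL/6J haplotype, had a lowest value of 6.60, a median of 7.25 and a highest value of 11.41 in the high pools on the high fat diet, against 6.74, 9.42 and 12.58 in the low pools. On chow it read 6.36, 6.76 and 13.04 in the high pools, against 6.46, 9.09 and 12.05 in the low pools. Both groups spanned silent and expressed levels, and the difference of -0.96 ± 0.81 units did not pass the test (adjusted p = 0.898).

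The pools of neither group were placed there by the same ranking on Hspa1a. They spanned a narrow range of Hspa1a, from 8.924 to 10.38, with an SD of 0.327 units after removal of the diet means. Over these 49 pools the slope on Hspa1a was called for 0 of 22178 genes (0%; limma, 1088 at an unadjusted p under 0.05, 4.91%). The slopes of the 7 higher genes were all positive and that of Cirbp was negative. For Hsp90aa1 the slope was 0.184 ± 0.0603 units per unit of Hspa1a (SE; adjusted p = 0.818), for Hsph1 0.263 ± 0.118 (adjusted p = 0.987), for Dnajb1 0.0754 ± 0.0907 (adjusted p = 0.995) and for Cirbp -0.136 ± 0.0829 (adjusted p = 0.993). Hspb1 had a slope of 0.456 ± 0.147 (adjusted p = 0.818).

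The genes most like Hspa1a over these 49 pools, by Pearson's r after removal of the diet means and among genes above the median level, are given as a description. Hspa1b came first with an r of 0.534, then Dnaja4, an Hsp40, with 0.522. Next were the matricellular protein gene Ccn2 with 0.494, Calhm5 with 0.488, the cytokine receptor subunit gene Il6st with 0.488, the Z-disc gene Pdlim3 with 0.487, Loxl3 with 0.482, Fbln5 with 0.468, Sox9 with 0.47 and Ighm with 0.463. The level of Hspa1b in these pools, 7.70 to 9.61 units, was near that of the median gene. Between high and low pools these genes other than Hspa1b differed by at most 0.347 units, in Ccn2 (SE 0.138, adjusted p = 0.726), and 0 of them were called.

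With all 81 pools in the slope, 22 genes were called (0.0992%), 20 with a positive slope (0.0902%) and 2 with a negative one (0.00902%), and 7 of the 22 were among the 8. Cirbp was not one of them (slope -0.0881 ± 0.0222, adjusted p = 0.0825). Hsp90aa1 had a slope of 0.185 ± 0.0173 units per unit of Hspa1a (adjusted p = 6.16e-13), Hsph1 0.330 ± 0.0332 (adjusted p = 9.32e-12) and Dnajb1 0.226 ± 0.0239 (adjusted p = 5.6e-11). Further genes in this fit were Stip1, with 0.0986 ± 0.0169 (adjusted p = 0.000262), Serpinh1, with 0.144 ± 0.0285 (adjusted p = 0.00589), and Plod1, a lysyl hydroxylase for collagen, with 0.0778 ± 0.0176 (adjusted p = 0.031). This fit includes the pools of the high and low groups, which were chosen by their Hspa1a.

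**Figure D4:**
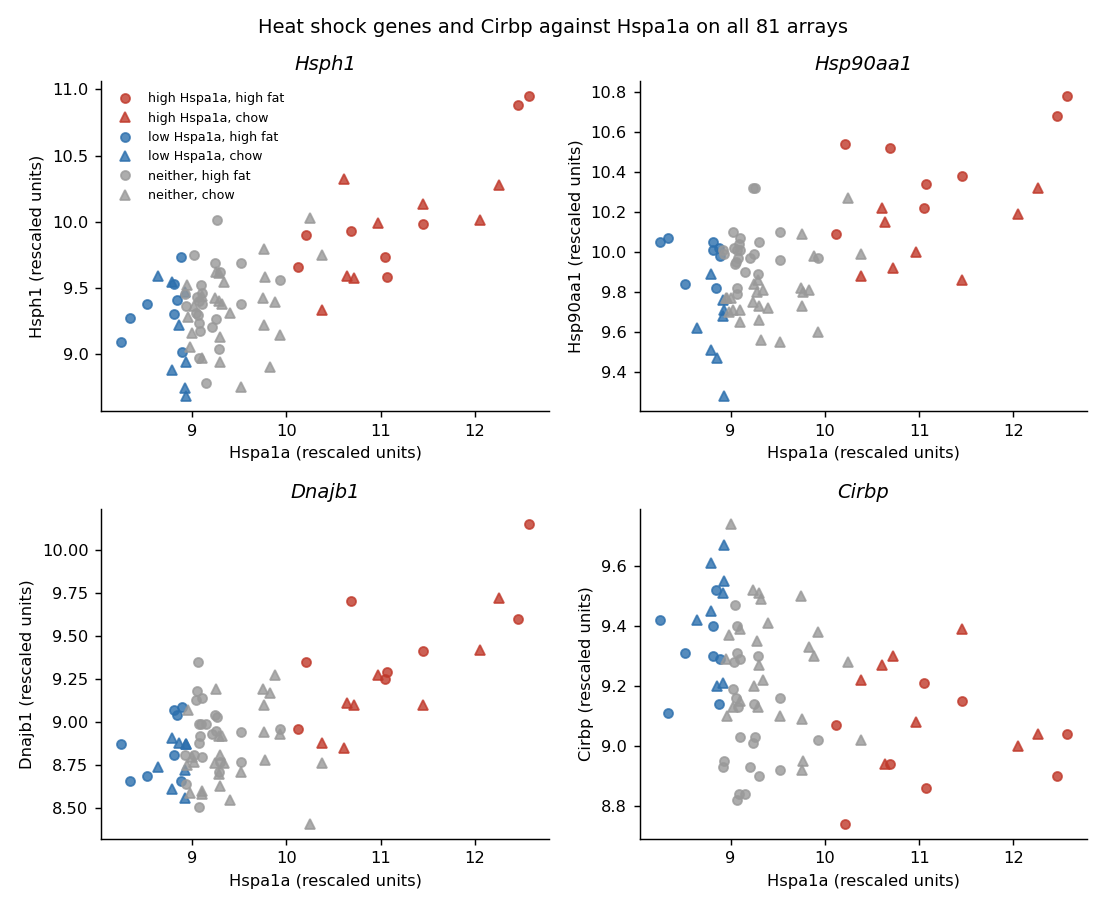
Hsph1, Hsp90aa1, Dnajb1 and Cirbp against Hspa1a, all in rescaled units, on 81 arrays, coloured by group (red high, blue low, grey neither) with circles for the high fat diet and triangles for chow. The highest Hsph1 (10.95) and the highest Dnajb1 (10.15) are both in BXD43 on the high fat diet, the pool with the most Hspa1a. Hsp90aa1 has a slope of 0.185 over all arrays, and in the grey points between 8.924 and 10.38 no slope was called.

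In strains with both diets, Hspa1a on one diet was compared by the class that the strain had on the other diet, so the value read did not set the class. Of the 30 arrays read, 12 were themselves in the high or low group by their own value. The 16 high pools came from 13 strains and the 16 low pools from 13. BXD43, BXD63 and DBA/2J were high on both diets, BXD61, BXD73 and BXD87 low on both, and 0 strains were high on one diet and low on the other. Strains chosen as high on chow read 9.057, 9.59 and 12.571 (lowest, median, highest of 8) in their high fat pools, against 8.246, 8.79 and 9.291 in those chosen as low (6 strains). The difference was 1.56 units, with 4 of 8 above all low strains (exact permutation test, 2-sided, p = 0.0147, adjusted p over 4 tests = 0.0147). Strains chosen as high on the high fat diet read 8.947, 10.1 and 12.261 in their chow pools, against 8.857, 9.04 and 9.752 in those chosen as low (8 each). The difference was 1.07 units, with 5 of 8 above all low strains (exact permutation test, p = 0.00808, adjusted p = 0.0108). The 4 tests are these comparisons and the correlations below. They read Hspa1a on overlapping sets of the same strains, so they are not separate results.

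Over 39 strains Hspa1a on the high fat diet correlated with Hspa1a on chow with a Pearson's r of 0.462 (permutation p = 0.00444, adjusted p = 0.00888) and a Spearman's rho of 0.452 (p = 0.0038, adjusted p = 0.00888). Without BXD49 and DBA/2J, the strains farthest from the chow median, these were 0.389 and 0.45. Without DBA/2J alone the differences were 1.25 and 0.78 units (adjusted p = 0.0341 and 0.0324 by the exact permutation test), rho was 0.409 (adjusted p = 0.0324) and r was 0.302 (adjusted p = 0.0619). Single strains departed widely. BXD49 had 12.049 on chow and 9.068 on the high fat diet, and BXD84 had 11.445 and 9.057. Neither was in the high group of the high fat diet, where the low group reached up to 8.886. BXD95 and BXD65 were high on the high fat diet alone, with 9.293 and 8.947 on chow.

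In a fit over all genes by the class a strain had on the other diet (30 pools, of which 12 were themselves in the high or low group), 0 of 22180 genes were called (0%; limma, 1453 at an unadjusted p under 0.05, 6.55%). Hspa1a differed by 1.30 ± 0.333 units (adjusted p = 0.367), Hsph1 by 0.577 ± 0.161 (adjusted p = 0.49), Hsp90aa1 by 0.272 ± 0.0817 (adjusted p = 0.537), Dnajb1 by 0.250 ± 0.123 (adjusted p = 0.759) and Cirbp by -0.262 ± 0.0540 (adjusted p = 0.256). The 7 higher genes were positive and Cirbp negative, in part on the same pools as before.

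**Figure D5:**
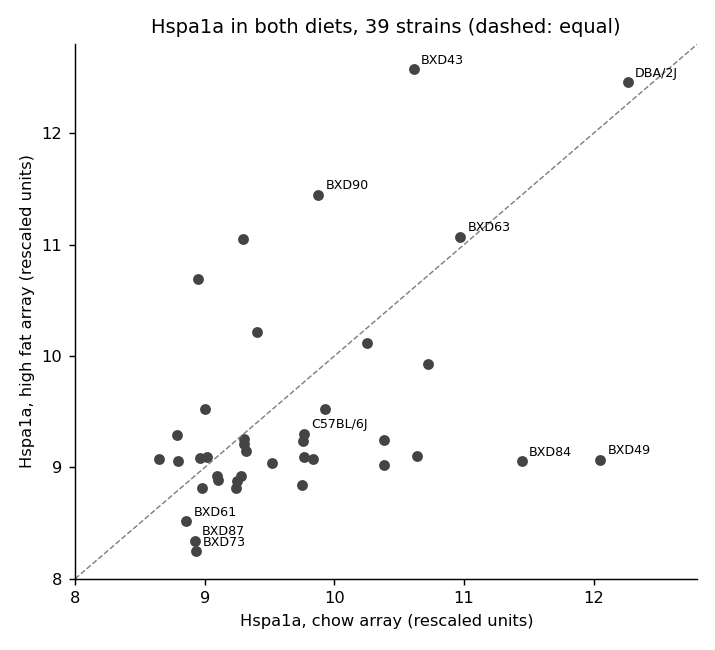
Hspa1a of the high fat array against the chow array of the same strain, in rescaled units, for 39 strains, with a dashed line at equal values and names for the strains that were high or low on both diets and others described. DBA/2J and BXD63 lie near the line at high values, BXD43 and BXD90 above it, and BXD49 and BXD84 far below it.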

How the data were processed

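Diet, strain and tissue came from the labels. The values that the authors deposited are scores, 1 for each probe set, that behave like logarithms of an unstated base, and the submitters' processing notes name Affymetrix Expression Console with no version. How probes were summarised, and with which build and annotation, is not stated by any source used here. In the deposited values the 41345 probe sets of each array average 8 with an SD of 2, which removes any shift shared by most transcripts. The plan assumed a log2 scale, and differences are therefore given in units.

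Of the probe sets 23521 had 1 symbol in the platform's gene table, 1814 had several and 16010 were unnamed, among them 190 controls. A gene with several probe sets was read from the brightest one on average, which gave 22180 genes, with no filter on level. The Entrez identifiers of 21994 genes were found in a RefSeq table (GRCm38.p6), which gave neighbours and promoters and no coordinates of probes.

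Groups were compared in R 4.3.3 with limma 3.58.1 (lmFit, eBayes, diet as a term), 2-sided, with Benjamini-Hochberg adjustment over all genes and Hspa1a and Hspa1b left out of the test. Exact permutation tests and correlations (100000 permutations) used SciPy 1.17.1. The limma fits of groups, interaction, the other diet's class and the slope in pools of neither group were also run on simulated data. The permutation tests were not. Of 528 genes on 42 lists 481 were measured. Genes are named if called, if they define the heat shock response, or if they are among the 10 most like Hspa1a, and further genes were named after their values were seen. The members, the lists and the genes that define the response were chosen with earlier results of these data known. Alternatives covered scaling, strain as a random block, the number and ranking of pools, the probe set per gene, variance models, array weights (statmod 1.5.0) and marker covariates. Dropping DBA/2J, the highest pools or 1 pool, and the tied BXD99, were added after the data were seen.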

Additional observations from a re-analysis of the deposited data

Results flagged for a closer look

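In the groups of 8 pools, 14 genes were screened for single pools far from the rest, in 56 groups of values, and 2 stood apart by Dixon's criterion, a rule that chance alone meets in about 1 in 20 groups. Hspa1b was 7.12 in BXD79, a low pool on chow, with 7.93 in the nearest pool of that group, although the same array had the highest Hspa1a of its group at 8.932. Bag3 was 12.24 in BXD75, a high pool on the high fat diet, with 12.58 in the nearest pool.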

How the results depend on the processing

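No called result changed sign under the alternatives tried. With strain as a random block, which pairs the pools of a strain, the count of called genes was again 8, the same genes, and it changed no other call. It was 9 after quantile normalization, 7 after centring on array medians, 8 with a trended and robust variance, 8 with probe sets averaged and 11 among genes above the median level. It moved by over 1.5 times in others: 2 with 6 pools per group and diet (Dnajb1 and Hsp90aa1), 4 with 10, 5 with array weights, 3 when both parents were dropped before ranking (Hsp90aa1, Hsph1 and Cirbp), 0 in either diet alone, 4 without DBA/2J and 1 without the 3 highest pools of each diet. Ranking by Hspa1b called 10 genes, 6 of them shared, and BXD99 in place of BXD80 called 10, with all 8. Leaving out 1 pool at a time gave 5 to 10. The slope called 22 genes with all 81 pools against 0 in the 49. The fit by the other diet's class called 2 with 6 pools per group, Cdkn1a and Herpud1, both lower and named after their values were seen, against 0 otherwise. For Hspa1a across diets, Pearson's r was 0.302 without DBA/2J, and Spearman's rho was 0.228 for Hspa1b (permutation, adjusted p = 0.163). The cause of these changes was not tested. Where pools were left out, the number of pools and which pools remained changed together. Control probe sets gave 0 calls among 190, with 14 (7.37%) at an unadjusted p under 0.05 and differences of up to 0.272 units. The scaling of the arrays hides any shift shared by all genes.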

Other observations

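Tmem33 and Ccnb1ip1, outside the heat shock lists, came close to the threshold between high and low pools. Tmem33, a membrane protein of the endoplasmic reticulum, differed by 0.254 ± 0.0528 units (limma, adjusted p = 0.065), with 6 of 8 high pools above all low pools on each diet. Ccnb1ip1, a ubiquitin ligase known from meiosis, differed by -0.307 ± 0.0637 units (limma, adjusted p = 0.065), with 4 of 8 high pools on the high fat diet and 5 of 8 on chow below all low pools. Its mean level of 6.17 was below the median gene at 8.18, and its slope in the pools of neither group was 0.0166 ± 0.102. Among the clock genes, of which 0 of 18 were called, Bhlhe40 differed by 0.31 ± 0.0880 units (limma, adjusted p = 0.492) and Nr1d1 by 0.26 ± 0.0981 units (adjusted p = 0.716). These genes were named after their values were seen.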
